A study of Mus musculus with 2 samples.

Results

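The genes of 10 enzymes of threonine, glycine, serine and folate metabolism were followed in Drosha knockout mouse embryonic stem (ES) cells. They are Tdh and Gcat of threonine catabolism, Gldc and Amt of glycine cleavage, Shmt1, Shmt2, Mthfd1 and Mthfd2 of the folate cycle, and Phgdh and Psat1 of serine synthesis. They were chosen by name, each symbol matched 1 gene ID of the count files through the GENCODE M21 annotation, and all 10 were found among 43629 genes. Poly-A RNA was sequenced in 2 libraries of 1 group, called B and A after their titles. Both came from blastocyst-derived ES cells of the 129/Ola background at passage 7, carrying a Drosha knockout made with CRISPR/Cas9, grown in serum with LIF and otherwise untreated. Cells with intact Drosha were not analysed here, so no level given below is a change due to loss of Drosha, the nuclear nuclease that starts microRNA maturation. The titles number the cells differently while the source names are the same, and separate cultures or clones are not stated. Both titles also carry the code d5, which is not interpreted here. A difference between B and A may therefore be technical or may lie between lines, and n counts libraries.

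Mouse ES cells are known for an unusual dependence on threonine. The mitochondrial enzyme threonine dehydrogenase oxidises it, a ligase splits the product into glycine and acetyl-CoA, and the glycine cleavage system passes a carbon of glycine to tetrahydrofolate. Serine, made from a glycolytic intermediate, feeds the same folate pool, which is used for purines, thymidylate and the methyl groups of S-adenosylmethionine.

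The libraries held 42322129 counts in B and 29264632 in A. A gene at 0 reads could have had up to 0.0711 CPM (reads scaled to a common library size with TMM factors) in B and 0.102 CPM in A, the level of 3 counts, and intervals and floors here cover counting error only. Drosha itself had 7023 reads in B and 4865 in A, which over a whole gene does not check the deletion. All 6 ES cell markers were present, from Klf4 at 135 ± 6.06 TPM to Pou5f1 at 1399 ± 33.0 TPM (a transcript share after division by exon length; SD, n = 2). Of the hepatocyte markers, a cell type that uses the same pathways, Alb had 0 reads in both libraries, Ttr had 4 in B and 2 in A, Apoa1 had 8 in B and 12 in A, and Cps1 had 67 in B and 45 in A. Of 15 feeder fibroblast markers 9 reached 1 CPM in both libraries, and without Fn1, which was high in both, they summed to 91.5 CPM in B and 96.7 CPM in A. The largest of these were Thy1, at 43.7 CPM in B and 42.9 in A, and Col5a1, at 22.9 in B and 21.7 in A.

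Every one of the 10 enzymes was strongly expressed. All 10 reached 1 CPM in both libraries, as did 72.8% of the 17124 protein-coding genes with a read. Their mean levels ran from 107 TPM for Amt to 620 TPM for Tdh, with a median of 195 TPM against 7.77 TPM over protein-coding genes with a read, and stood between the 92.7th and the 99.4th percentile of those genes. Together they summed to 2541 TPM in B and 2625 TPM in A, and took 0.332% of counts in B and 0.339% in A. The reads behind a member ranged from 2872 to 29757 per library. In bulk RNA, fewer cells of a type and less RNA per cell cannot be told apart.

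**Figure D1:**
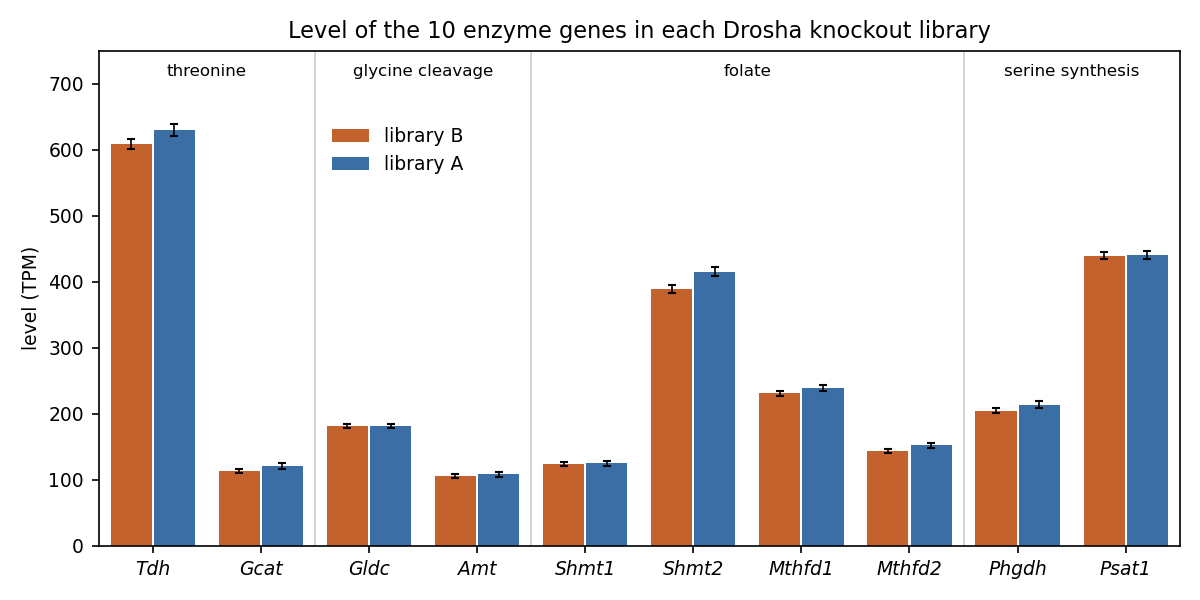
Level of each enzyme gene in TPM (linear axis from 0), with library B left of library A and 95% Poisson counting intervals as bars. Tdh stands highest at 609 TPM in B and 630 TPM in A, and Amt lowest at 106 TPM in B and 108 TPM in A.

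Threonine catabolism was led by Tdh. Tdh, threonine dehydrogenase (ENSMUSG00000021953, chromosome 14, 63492347 to 63509092 on GRCm38), had 25363 reads or 609 TPM in B and 17997 reads or 630 TPM in A. That put it 110th among protein-coding genes by mean TPM. Gcat (ENSMUSG00000006378, chromosome 15, 79030874 to 79038353), the ligase that takes the product of Tdh to glycine and acetyl-CoA, had 4306 reads or 113 TPM in B and 3135 reads or 120 TPM in A. Tdh RNA was thus 5.37 times that of Gcat per exon length in B (95% exact Clopper-Pearson interval 5.20 to 5.55) and 5.23 times in A (5.04 to 5.44). The separate list of threonine and serine breakdown, which leaves out Shmt1 and Shmt2, was low. Threonine aldolase Tha1 had 31 reads or 0.669 TPM in B and 28 reads or 0.881 TPM in A, and the ratio of Tdh to Tha1, chosen after the values were seen, was 910 in B (641 to 1340) and 715 in A (495 to 1077). The dehydratase Sds had 8 reads in B and 6 in A, its paralog Sdsl had 6 in B and 5 in A, and the serine racemase Srr had 2.71 TPM in B and 2.61 in A. Annotated exons of Srr and Sds match a neighbouring gene over at least 200 bases, so even these few reads are uncertain.

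A processed pseudogene resembling Tdh also held reads. Gm13929 (chromosome 2, 112000180 to 112001304) matched the longest Tdh transcript over 1125 bases at 97.1% identity, and had 1644 reads in B and 1089 in A, which is 6.48% of the Tdh count in B and 6.05% in A. The sources used here do not say how reads that match both places were counted. With the pseudogene added, Tdh had 649 TPM in B and 668 TPM in A. An antisense gene, Gm17232, shares 66 exon bases with Tdh and had 18 reads in B and 15 in A.

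In the glycine cleavage system, Gldc was above Amt, by a factor that depended on the length used. Gldc, the decarboxylase that starts glycine cleavage (ENSMUSG00000024827, chromosome 19, 30098447 to 30175429), had 17610 reads in B and 12090 in A, which is 182 TPM in each. Amt, the aminomethyltransferase that hands the carbon to tetrahydrofolate (ENSMUSG00000032607, chromosome 9, 108296853 to 108302302), had 4105 reads or 106 TPM in B and 2872 reads or 108 TPM in A. Gldc was 1.72 times Amt per exon length in B (1.66 to 1.78) and 1.68 times in A (1.62 to 1.75). The mean ratio was 2.35 with the longest transcript and 4.25 from reads with no length. The carrier protein Gcsh, on which the reaction intermediate rides, was above both per exon length, with 238 TPM in B and 241 TPM in A. With the longest transcript its mean was 212 TPM, below Gldc at 238 TPM. Dld, the dehydrogenase that the system shares with pyruvate dehydrogenase and related complexes, had 81.2 TPM in B and 76.0 TPM in A.

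Serine synthesis had its second enzyme above its first, by a factor that depended on the length and the copies counted. Psat1, the aminotransferase of the second step (ENSMUSG00000024640, chromosome 19, 15904678 to 15947337), had 29757 reads or 439 TPM in B and 20479 reads or 441 TPM in A, the most reads of any member. Phgdh, the dehydrogenase that draws carbon from glycolysis (ENSMUSG00000053398, chromosome 3, 98313170 to 98339990), had 8102 reads or 205 TPM in B and 5805 reads or 214 TPM in A. Phgdh was 0.466 times Psat1 per exon length in B (0.455 to 0.478) and 0.485 times in A (0.471 to 0.499). The phosphatase Psph, which finishes the pathway, had 62.1 TPM in each library, with 255 annotated bases shared with Cct6a.

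Of the 10 genes, Phgdh had the most reads on near-identical copies. Its longest transcript matched 9 annotated pseudogenes over at least 200 bases at 95% identity or more, 5 of which have a row in the count files. One of them, Gm7901 (chromosome 8, 75711600 to 75713196), matched over 1597 bases at 98.7% identity and had 4265 reads in B and 2913 in A, that is 52.6% of the Phgdh count in B and 50.2% in A. The other 4 had 18 reads between them in B and 27 in A. With the reads of these copies added, Phgdh had 313 TPM in B and 322 TPM in A, and its mean ratio to Psat1 moved to 0.721. Whether the reads on Gm7901 came from the pseudogene or from Phgdh was not tested. None of the other 8 members had such a match to another gene, apart from Gcat, whose readthrough entry of the same name has no row in the files.

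**Figure D2:**
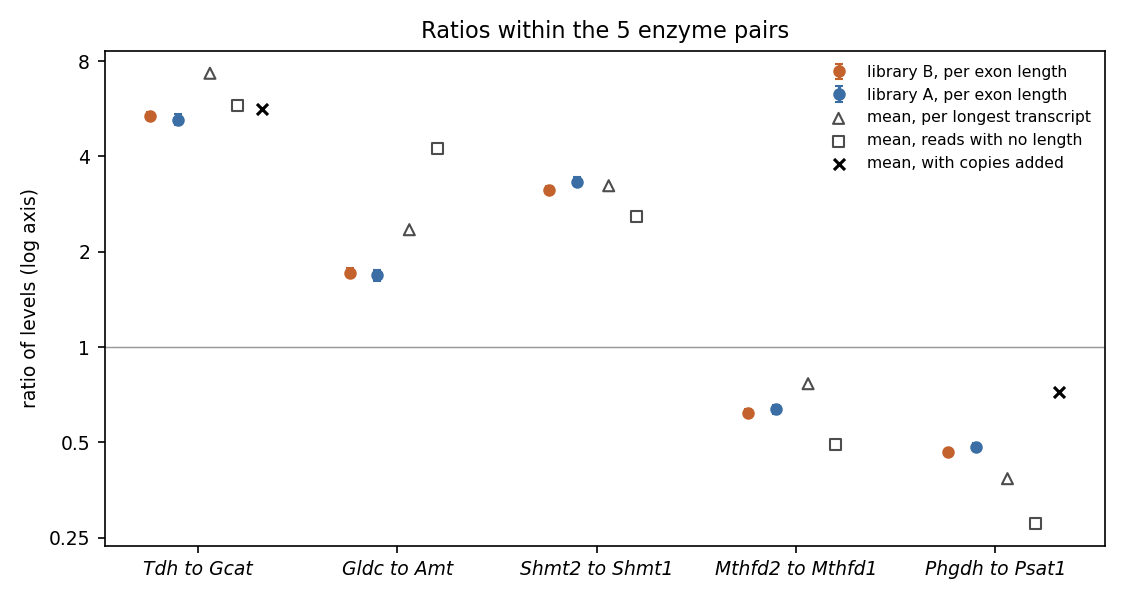
Ratio of levels within each enzyme pair on a log axis, for library B and library A per exon length with 95% intervals, beside the mean ratio under other lengths and with copies added. Tdh to Gcat lies above 5 in both libraries, while Phgdh to Psat1 moves between 0.278 and 0.721 with the length and the copies used.

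In the folate cycle, the mitochondrial Shmt2 was above the cytosolic Shmt1, while the mitochondrial Mthfd2 was below the cytosolic Mthfd1. Both Shmt enzymes turn serine and tetrahydrofolate into glycine and methylene-tetrahydrofolate. Shmt2 (ENSMUSG00000025403, chromosome 10, 127517123 to 127522444) had 19256 reads or 389 TPM in B and 14096 reads or 415 TPM in A. Shmt1 (ENSMUSG00000020534, chromosome 11, 60788104 to 60811718) had 7652 reads or 124 TPM in B and 5293 reads or 125 TPM in A. The Shmt2 to Shmt1 ratio was 3.14 in B (3.06 to 3.23) and 3.33 in A (3.22 to 3.43). Mthfd2, which oxidises methylene-tetrahydrofolate in the mitochondrion (ENSMUSG00000005667, chromosome 6, 83305691 to 83325908), had 7943 reads or 143 TPM in B and 5788 reads or 152 TPM in A. Its paralog Mthfd2l, named after its values were seen, had 1.29 TPM in B and 1.03 TPM in A, and the ratio of Mthfd2 to Mthfd2l was 111 in B (93.9 to 133) and 147 in A (117 to 187). Mthfd1, the cytosolic protein that carries the interconversions between formate and methylene-tetrahydrofolate (ENSMUSG00000021048, chromosome 12, 76255298 to 76319803), had 16309 reads or 231 TPM in B and 11599 reads or 239 TPM in A. The Mthfd2 to Mthfd1 ratio was 0.620 in B (0.604 to 0.637) and 0.636 in A (0.616 to 0.656).

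Exons of Shmt1 share 184 bases with Smcr8 on the opposite strand, which had 2260 reads in B and 1591 in A, and those of Shmt2 share 32 bases with Ndufa4l2, which had 956 in B and 674 in A. The library protocol was reverse-stranded, but the sources used here do not say whether counting used strand, so reads in these overlaps are uncertain.

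The starts of both compartment pairs are shown because these are the members with sister enzymes in the cytosol and the mitochondrion whose levels differ. Each sequence is the 250 bases before the RefSeq start on GRCm38.p6, written 5′ to 3′ along the gene's strand, and capitals mark CCAAT (the box bound by the factor NF-Y) and GGGCGG (the GC box of the Sp family) on either strand. The windows are chr10:127522445-127522694 on the minus strand for Shmt2, chr11:60811266-60811515 on the minus strand for Shmt1, chr6:83317605-83317854 on the minus strand for Mthfd2 and chr12:76254982-76255231 on the plus strand for Mthfd1.
Shmt2: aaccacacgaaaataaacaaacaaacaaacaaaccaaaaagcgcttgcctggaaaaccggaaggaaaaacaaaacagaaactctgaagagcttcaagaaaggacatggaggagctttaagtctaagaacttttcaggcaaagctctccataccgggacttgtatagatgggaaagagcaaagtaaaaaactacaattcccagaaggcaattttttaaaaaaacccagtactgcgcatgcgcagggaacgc
Shmt1: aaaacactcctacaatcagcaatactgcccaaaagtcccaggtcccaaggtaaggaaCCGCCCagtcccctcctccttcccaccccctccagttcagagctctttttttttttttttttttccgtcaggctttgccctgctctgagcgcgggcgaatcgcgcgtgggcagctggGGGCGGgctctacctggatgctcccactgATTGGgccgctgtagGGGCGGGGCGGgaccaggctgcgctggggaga
Mthfd2: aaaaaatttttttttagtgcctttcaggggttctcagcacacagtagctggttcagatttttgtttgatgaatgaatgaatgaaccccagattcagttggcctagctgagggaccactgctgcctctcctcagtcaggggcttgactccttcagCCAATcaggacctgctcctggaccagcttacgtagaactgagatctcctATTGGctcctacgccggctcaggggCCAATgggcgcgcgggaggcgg
Mthfd1: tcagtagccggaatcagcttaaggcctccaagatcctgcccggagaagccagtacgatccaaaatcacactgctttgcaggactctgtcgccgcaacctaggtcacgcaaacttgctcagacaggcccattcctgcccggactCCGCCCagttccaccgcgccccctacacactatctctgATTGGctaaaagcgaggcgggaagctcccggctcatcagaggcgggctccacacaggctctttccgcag

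Mthfd2 had CCAAT at 3 places, 96, 47 and 22 bases before the start, Mthfd1 and Shmt1 had it once, at 69 and 47 bases, and the Shmt2 window, with 40.8% G and C, had neither motif. Shmt1 held GGGCGG at 4 places, of which those at 32 and 27 bases overlap by a letter. RefSeq windows were at hand for 9 of the members, with 2 for Psat1 and none for Tdh. The windows of Mthfd2 and Shmt1 and both of Psat1 lie inside the GENCODE spans of their genes. Those RefSeq starts are thus not at the outer ends of the annotation used for levels. CCAAT stood in those of 7 genes, against 33.8% of all 32851 windows of that length. GGGCGG stood in those of 6 genes, against 32.7%. The member counts are by gene and the shares by window, and Psat1 had CCAAT and GGGCGG in different windows. The E-box CACGTG and TGATGNAA, the core of the amino acid response element of Atf4, were in 0 of the 9, against 6.02% and 3.45% of all windows. These are letter matches on both strands and not binding sites.

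By mean TPM the members ran, from high to low, Tdh at 620 ± 14.6, Psat1 at 440 ± 0.841, Shmt2 at 402 ± 18.3, Mthfd1 at 235 ± 5.91, Phgdh at 209 ± 6.36, Gldc at 182 ± 0.0360, Mthfd2 at 148 ± 6.24, Shmt1 at 124 ± 0.684, Gcat at 117 ± 4.88 and Amt at 107 ± 1.45 (SD, n = 2). No neighbours in that order overlapped between the libraries. The counting intervals of Shmt1 and Gcat overlapped in A and not in B. Those of Gcat and Amt did not overlap within either library, and overlapped when Gcat in B was set against Amt in A. With the length of the longest transcript in place of all annotated exons, Gldc came above Phgdh and Amt above Gcat. With the reads of its copies added, Phgdh had a mean of 317 TPM and came above Mthfd1.

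Library B was then set against library A, gene by gene, with an exact binomial test (two-sided) and Benjamini-Hochberg adjustment over 18198 genes with at least 10 reads. The test weighs a difference against counting error and compares these libraries, not conditions. Each member had a similar level in B and A, and the largest difference in CPM was 5.07%, for Shmt2. The median log2 ratio of B over A was -0.032 for the members, against -0.00084 for all genes tested. Of the 10, 1 passed at an adjusted p of 0.05, against 2.29% of all genes tested and 10.2% of the 2902 genes with 6000 reads or more in B and A together, a depth that all 10 members exceed and that was set after the values were seen. A count of 1 in 10 is thus near the share among genes of such depth. The median size of the log2 ratio, whatever its sign, was also alike, at 0.0317 for the members and 0.0319 for those 2902 genes.

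The member that passed was Shmt2, with 456 CPM in B and 480 CPM in A, a log2 ratio of -0.075 (95% interval -0.106 to -0.0435) and an adjusted exact binomial p of 0.000435. Among all genes tested 0.989% passed as lower in B and 1.3% as higher in B. Guanine and cytosine (GC) content moved with the ratio in these libraries. The median log2 ratio was 0.039 in the fifth of genes with the lowest GC content and -0.055 in the fifth with the highest, over genes with at least 100 reads, and Shmt2 had 57.4% GC, the highest of the members. With that trend removed Shmt2 had a log2 ratio of -0.031 and an adjusted exact binomial p of 0.573, and 0 of the 10 members passed, against 0.791% of all genes and 3.82% of those with 6000 reads or more. Fibroblast markers also differed: Col3a1, Col1a2, Dcn and Postn, 4 of 14 tested, passed as lower in B, and 10 of the 14 were lower in B. The log2 ratios of those 4 ran from -1.60 for Dcn to -2.24 for Col3a1, on at most 51 reads per library. Unlike Shmt2, all 4 also passed with the GC trend removed. The part of such cells in the Shmt2 result was not tested.

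**Figure D3:**
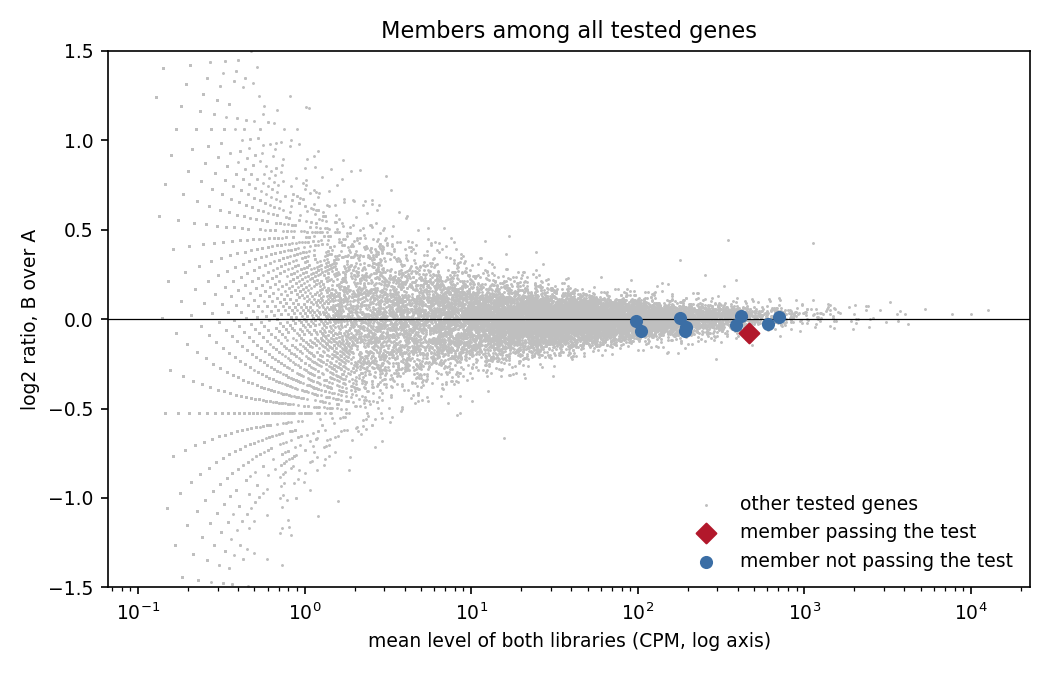
Log2 ratio of B over A against mean CPM (log axis) for the tested genes in grey, with the members as large points; 170 genes beyond 1.5 on the log2 scale fall outside the axis. Shmt2, the diamond, is the member that passed, at -0.075.

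Before adjustment, 4 members had an exact binomial p under 0.05: Shmt2, Mthfd2, Tdh and Gcat. The share of all tested genes under that unadjusted threshold was not counted, so these 4 are not read as a trait of the members. Mthfd2 had 188 CPM in B and 197 CPM in A, with a log2 ratio of -0.068 and an adjusted exact binomial p of 0.140. Its GC content was 49.6%, and without the GC trend the ratio was -0.077. Tdh had 601 CPM in B and 613 CPM in A, with a ratio of -0.030, and Gcat had 102 CPM in B and 107 CPM in A, with a ratio of -0.067; their adjusted exact binomial p were 0.330 and 0.396. In all 7 members were lower in B and 3 higher, while 50.3% of all tested genes were lower in B. The 3 higher were Gldc at 0.018, Psat1 at 0.014 and Shmt1 at 0.0067 on the log2 scale. In TPM, which is scaled otherwise, these 3 were slightly lower in B. Psat1 had 439 TPM in B and 441 in A, Shmt1 123.8 in B and 124.8 in A. Gldc had 181.63 TPM in B and 181.68 in A. Scaling by total counts, which shifts every log2 ratio by -0.0073, turned Shmt1 to -0.00054. The 95% intervals of the 9 members that did not pass lie between -0.134, the lower bound of Gcat, and 0.060, the upper bound of Amt, so a log2 difference beyond those bounds lies outside the counting intervals of all 9.

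**Figure D4:**
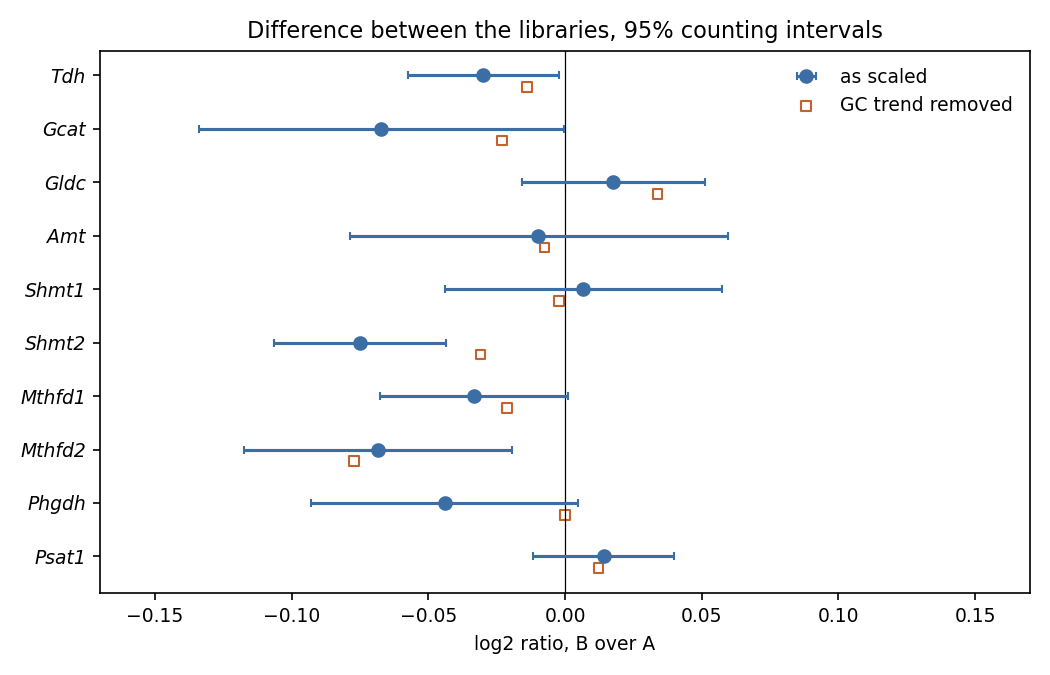
Log2 ratio of B over A for each member with its 95% counting interval (filled) and after removal of the GC trend (open squares). Shmt2 lies at -0.075 as scaled and at -0.031 without the trend, and Mthfd2 at -0.068 and -0.077.

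Over all genes 237 passed as higher in B and 180 as lower, and with scaling by total counts 180 passed as higher in B and 242 as lower. With TMM factors from all genes, a setting added after seeing the data, 311 passed as higher in B and 152 as lower.

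The wider pathway was described with 55 further genes in 7 lists, of which 49 reached 1 CPM in both libraries. In the folate cycle and transport list 16 of 18 did, with a median of 10.7 TPM. It was led by Mthfd1l, the mitochondrial synthetase that releases formate, at 114 TPM in B and 117 TPM in A, followed by the folate-chain synthase Fpgs at 70.9 TPM in B and 75.8 TPM in A and the folate receptor Folr1 at 47.2 TPM in B and 44.6 TPM in A. In the methionine cycle and transsulfuration list 13 of 14 did, with a median of 13.7 TPM. Mat2a, which makes S-adenosylmethionine, had 268 TPM in B and 266 in A, Cth, the last enzyme of cysteine synthesis, had 238 in B and 246 in A, and Mtap, which salvages methionine, had 73.5 in B and 71.8 in A. The liver form Mat1a had 0 reads in both libraries.

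Purine synthesis, a main user of folate-borne carbon, was high throughout. All 6 genes of its list reached 1 CPM, with a median of 97.1 TPM, led by Paics at 697 TPM in B and 702 in A, Gart at 336 in B and 341 in A, and Ppat at 100.1 in B and 99.4 in A. Paics and Ppat share at least 200 annotated bases, so their reads are uncertain. All 10 genes of the amino acid response list did as well, with a median of 80.2 TPM. They were led by Asns, asparagine synthetase, at 677 TPM in B and 695 in A, by Atf4, the transcription factor of that response, at 511 in B and 532 in A, and by Sesn2, a brake on mTORC1, at 142 in B and 152 in A.

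**Figure D5:**
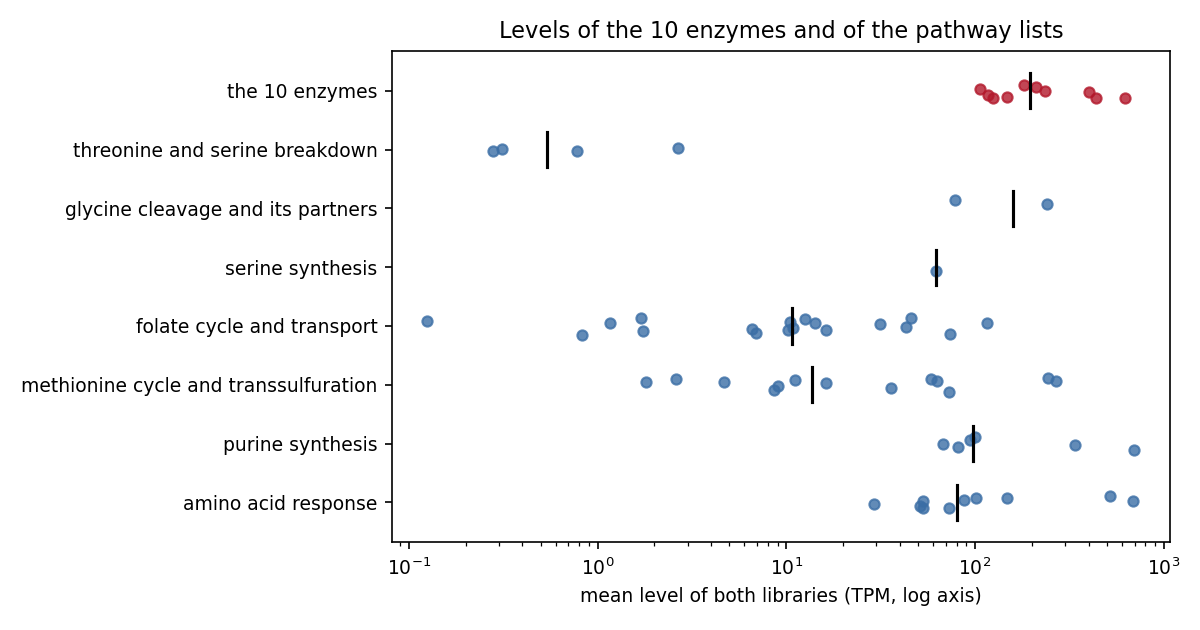
Mean TPM of both libraries (log axis) for the 10 enzymes and each pathway list, with a bar at the list median; Mat1a, at 0 reads, is not drawn. The 10 enzymes have a median of 195 TPM, and the threonine and serine breakdown list 0.543 TPM.

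Between the libraries 2 of the 54 pathway genes tested passed the exact binomial test, 1 in each direction, against 2.29% of all genes tested. Dld had 4760 reads in B and 3060 in A, a log2 ratio of 0.11 with an adjusted exact binomial p of 0.0377. Sesn2 had 7828 reads in B and 5786 in A, a log2 ratio of -0.089 with an adjusted exact binomial p of 0.0242. With the GC trend removed 0 of the 54 passed, against 0.791% of all genes tested. The lists' median log2 ratios lay between -0.21 for threonine and serine breakdown, a list of few reads, and 0.055 for Gcsh and Dld, against -0.00084 over all genes.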

How the data were processed

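The authors deposited whole-number read counts per Ensembl gene, with a separate file for each library. The submitters' processing notes name mm10, featureCounts 1.4.5-p1 and STAR 2.4.2a, with no roles; the sources used here give no annotation release, strand setting or rule for reads that match several places. RNA was poly-A selected and the protocol reverse-stranded, per the labels. Symbols, positions and exon lengths came from GENCODE M21 (GRCm38, the same build); 97.5% of IDs matched, and the rest held 0.163% of counts.

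CPM used TMM factors from genes with at least 10 reads (edgeR 4.0.16, R 4.3.3), TPM the union of exons, and log2 ratios 0.5 added reads. With 1 library a side no spread between replicates could be fitted, so the exact binomial test (scipy 1.17.1) was used. DESeq2 1.42.0 size factors, total counts, read filters, GC correction and other lengths were alternatives. Copies were matches of at least 200 bases at 95% identity (blastn 2.17.0). Promoter windows are RefSeq's. Named are all members, the 3 highest and any called or unread gene of each list. Members and lists were chosen with earlier results of these data known.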

Additional observations from a re-analysis of the deposited data

How the results depend on the processing

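No paired analysis was possible because the samples form 1 group. All 10 members also reached thresholds of 0.5 and 5 CPM, and reached 1 CPM with other scalings and in each library alone. The lowest, Amt, had a mean of 97.6 CPM, so these settings could not have changed the count. The count of 1 member passing between the libraries became 0 with the GC trend removed and 0 with edgeR's exact test at an assumed coefficient of variation of 0.1, which called 1 gene in all; the 417 genes called became 144 without the GC trend. Under the other scalings and read filters Shmt2 was the member that passed. Its adjusted exact binomial p ran from 5.71e-05 with total counts to 0.573 without the GC trend, and its adjusted p in edgeR's exact test was 1. The pseudocount does not enter the binomial test. The log2 ratio changed sign for Shmt1 with total counts (-0.00054) and without the GC trend (-0.0022), and for Phgdh without the GC trend (1.95e-05). The median level of the members, 195 TPM, was 230 TPM with the longest transcript, 208 TPM without mitochondrial genes in the totals and 208 TPM with copies added, which was added after seeing the data. Single levels moved by 0.815 to 1.36 times with the longest transcript.

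The mean ratio within pairs depended on the length used, except that Shmt2 to Shmt1 was 3.23 with the longest transcript as with all exons. With the longest transcript it was 7.33 for Tdh to Gcat, 2.35 for Gldc to Amt, 0.766 for Mthfd2 to Mthfd1 and 0.384 for Phgdh to Psat1. From reads with no length it was 5.82 for Tdh to Gcat, 4.25 for Gldc to Amt, 2.59 for Shmt2 to Shmt1, 0.493 for Mthfd2 to Mthfd1 and 0.278 for Phgdh to Psat1. With copies added it was 5.63 for Tdh to Gcat and 0.721 for Phgdh to Psat1. No ratio crossed 1 under these settings, though Phgdh copies without counts of their own could not be added. Depth was no limit for the members, which had at least 2872 reads in each library.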

Other observations

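A near-identical copy of a methionine cycle gene, singled out after its values were seen, had more reads than the gene itself. Ahcy, the hydrolase that clears S-adenosylhomocysteine after each methyl transfer, had 386 reads in B and 262 in A, or 8.64 TPM in B and 8.55 TPM in A. Gm4737 (chromosome 16, 46152985 to 46155077), annotated as protein coding, matched its longest transcript over 2083 bases at 99.7% identity and had 8517 reads in B and 5940 in A, or 256 TPM in B and 260 TPM in A. A second copy, Gm9826, had 35 reads in B and 19 in A. The level of Ahcy in the list therefore rests on how reads that match both places were assigned, on which the sources used here say nothing, and the origin of the reads on the copies was not tested.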
